A study of Homo sapiens with 12 samples.

Results

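sgRNA1 was 1 of 6 guide RNAs whose genomic binding sites were mapped in HEK 293T cells, a line derived from human embryonic kidney. All peaks listed for it were taken, 96 from replicate 1 and 1278 from replicate 2, which makes 1374 of the 58042 peaks in the 9 lists analysed. Cells were transfected, with Fugene6, with dCas9 and sgRNA1, and crosslinked chromatin was pulled down with an HA antibody. The libraries for sgRNA2 and sgRNA3 (2 replicates each) and for sgRNA4, sgRNA5 and sgRNA6 (1 each) differed by the guide, and dCas9 was common to all 9. A library of dCas9 without a guide was not analysed here, so no level without a guide can be set beside these values. The delivery was transient, the labels do not say whether the replicates came from separate cultures, and the intended target of sgRNA1 is not given in the sources used here.

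Cas9 is a bacterial nuclease that a guide RNA brings to DNA. It first contacts a short protospacer adjacent motif, and the guide then pairs with the DNA beginning at the end next to that motif, the seed. dCas9 is a form with both nuclease centres inactivated, which holds its site without cutting it, so that chromatin immunoprecipitation can map where it sits, including places other than the intended target.

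A peak is an interval in which the authors' caller, MACS, found sequenced fragments in excess. Each peak carries the authors' score, and no score in either list lay below 50. A score depends on the depth of its own library, which is unknown here, so score levels were not compared between lists. Ranks are within 1 list, and the scores of both replicates were correlated only over the sites they share. Positions refer to hg19 and are counted from 1. Peaks are identified by their coordinates, since an hg19 sequence and gene annotation were not used here.

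The lists of the replicates differed in size but met at the highest peaks. The 96 replicate 1 peaks covered 0.0477 Mb and the 1278 replicate 2 peaks 1.01 Mb. Of the replicate 1 peaks, 35 overlapped a replicate 2 peak by at least 1 bp, each pairing with exactly 1. This left 61 peaks in replicate 1 only and 1243 in replicate 2 only, or 1339 separate regions in all. The 35 sites made up 36.5% of replicate 1 (exact binomial 95% interval 26.9 to 46.9) and 2.74% of replicate 2 (1.91 to 3.79). These intervals, like all below, cover counting error only. Peaks of 1 library are not replicates of each other, so no test was made between classes of peaks.

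Within the 35 sites the 2 libraries placed the peaks closely. The distance between peak centres ranged from 13 to 318.5 bp with a median of 64 bp, and 33 of 35 centres lay within 200 bp. A median of 96.9% of the replicate 1 interval was covered by its replicate 2 counterpart, and never less than 65.9%. In 17 of 35 sites the replicate 1 peak lay wholly inside the replicate 2 peak. The replicate 2 peak was the wider of the pair at 25 of 35 sites.

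Sites that scored high in one library tended to score high in the other. Over the 35 sites, Spearman's rho between the replicates' scores was 0.60 and Pearson's r of the log10 scores 0.82, given as descriptions because the sites share their libraries and were kept only where both libraries passed the floor of 50. Without the 2 sites farthest from the replicate 1 median, rho was 0.53 and r 0.64 over 33 sites. Of the 35, 15 ranked in the top 50 of both lists and 5 in the top 10 of both.

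**Figure D1:**
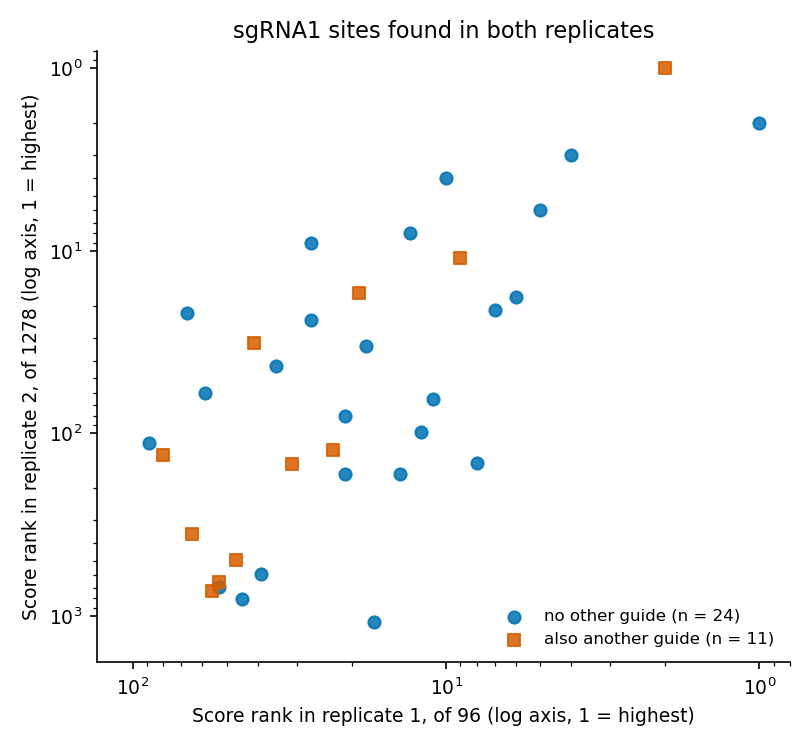
Score rank in replicate 1 (horizontal, of 96) against score rank in replicate 2 (vertical, of 1278) for the 35 sgRNA1 sites found in both replicates, on log axes with rank 1 at the top right. Circles are the 24 sites that overlapped no peak of another guide and squares the 11 that did; 5 sites rank in the top 10 of both lists, and 4 of these are circles.

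Of the 35 sites, 24 (68.6%, interval 50.7 to 83.1) overlapped no peak of sgRNA2 to sgRNA6 and were found with sgRNA1 alone. Among replicate 2 only peaks the corresponding share was 10.8% (134 of 1243, interval 9.11 to 12.6). Among replicate 1 only peaks it was 78.7% (48 of 61, interval 66.3 to 88.1), and over all replicate 1 peaks 75% (72 of 96, interval 65.1 to 83.3). The 35 sites therefore stood apart from the rest of replicate 2 in this share, and their interval overlapped that of the rest of replicate 1. Read from the other side, 24 of the 158 replicate 2 peaks with sgRNA1 alone were also in replicate 1 (15.2%, interval 9.98 to 21.8), against 11 of the 1120 shared with another guide (0.982%, interval 0.491 to 1.75). These intervals do not overlap. In replicate 1 the order was the other way, with 24 of 72 peaks with sgRNA1 alone found in replicate 2 (33.3%, interval 22.7 to 45.4) against 11 of 24 shared with another guide (45.8%, interval 25.6 to 67.2), and those intervals overlapped. A higher recurrence of peaks with sgRNA1 alone was thus seen from the replicate 2 list and not from the replicate 1 list.

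The highest sgRNA1-only site was that at chr9:110103257-110104060. Its score was 799 in replicate 1 (rank 1) and 1111 in replicate 2 (rank 2), and the nearest peak of another guide, of sgRNA5, lay 56.4 kb away. In replicate 1 the next sgRNA1-only site by score scored 296.

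A further 3 sites found with sgRNA1 alone were in the top 10 of both lists. The site at chr17:17401496-17402225 scored 296 in replicate 1 (rank 4) and 565 in replicate 2 (rank 3). The site at chr14:93611340-93611858 scored 171 (rank 5) and 324 (rank 6). The site at chr14:105521417-105522275 scored 119 (rank 10) and 406 (rank 4). With the chromosome 9 site, these 4 were high in each library separately. The chromosome 17 site had the closest neighbour of them, a sgRNA6 peak 0.572 kb away. The chr14:105521417-105522275 site had a sgRNA4 peak 6.71 kb away.

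Of the remaining sgRNA1-only sites, 7 ranked in the top 50 of both lists. The site at chr1:4000891-4001530 scored 98.6 in replicate 1 (rank 13) and 280 in replicate 2 (rank 8). At chr6:536976-537667 the scores were 61.7 (rank 27) and 276 (rank 9). This site was among the 10 highest in replicate 2 and well down the replicate 1 list. At chr1:117300460-117301270 they were 163 (rank 6) and 183 (rank 18), and at chr8:87138216-87138926 156 (rank 7) and 170 (rank 21). The chromosome 8 site was the most isolated of the 24, with the nearest peak of another guide 138 kb away. At chr1:246680861-246681509 the scores were 61.7 (rank 27) and 164 (rank 24), at chr4:1138907-1140066 they were 68.8 (rank 18) and 148 (rank 33), and at chr12:124233901-124234722 they were 58.9 (rank 35) and 139 (rank 43).

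A further 10 sgRNA1-only sites had a place in the top 50 of 1 list only. Rank 50 lies much deeper in a list of 96 peaks than in a list of 1278. Such a place therefore does not by itself mean that the libraries ranked a site differently. Sites in the top 50 of replicate 1 alone included chr18:19971797-19972403 (rank 8, and 145 in replicate 2), chr17:4750776-4751488 (rank 11 and 65), chr12:12015685-12016287 (rank 12 and 98) and chr5:176120525-176121162 (rank 14 and 166). The widest gap was at chr22:23654281-23654972, which ranked 17 in replicate 1 with a score of 69.8 and 1085 in replicate 2 with a score of 52.9, close to the floor of that list. The sites at chr2:241343075-241343824 and chr3:139036685-139037271 tied at rank 21 in replicate 1 and ranked 167 and 80 in replicate 2. Those at chr2:121426918-121427596 (rank 39) and chr10:98835068-98835655 (rank 45) ranked 593 and 811 in replicate 2. The site at chr19:359913-361567 was in the top 50 of replicate 2 alone, at rank 22 with a score of 168, against rank 67 in replicate 1 with 52.7. The last 3 of the 24 sites were outside the top 50 of both lists.

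Distance to other guides varied within these 24 sites. The nearest peak of any other guide lay between 0.109 and 138 kb away, with a median of 10.9 kb, and 11 of 24 sites had one within 10 kb. The smallest distance, 0.109 kb, was from the chr5:176120525-176121162 site to a sgRNA4 peak. The neighbours came from the lists of sgRNA4, sgRNA5 and sgRNA6, which hold 13660, 8346 and 33611 peaks and so lie densely along the genome. None of the 24 sites had its nearest neighbour in the shorter sgRNA2 or sgRNA3 lists.

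The other 11 sites of both replicates overlapped at least 1 other guide, and sgRNA6 was among the guides at each of them. sgRNA5 was found at 7, sgRNA4 at 5, sgRNA3 at 3 and sgRNA2 at 2. At 4 sites sgRNA6 was the single other guide, and at 2 sites all 5 other guides had a peak. In the other guides' own lists these partners stood high in most cases: 10 of the 11 sgRNA6 partners were in the upper 50% of the sgRNA6 list by score, and the median sgRNA6 partner ranked 1381 of 33611.

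The site at chr15:68132166-68132803 was the highest of these. It ranked 2 in replicate 1 (score 607) and 1 in replicate 2 (1199), and it was also rank 1 in 3 other lists, those of sgRNA2 replicate 2, sgRNA3 replicate 2 and sgRNA5. The site at chr1:85741681-85742818, also found with all other guides, stood lower, at rank 41 (57.8) and rank 32 (150). It ranked 12 of 570 in sgRNA2 replicate 2 and 15 of 382 in sgRNA3 replicate 2.

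Besides these, the site at chr20:34287082-34287874 was found with every guide but sgRNA2, at rank 19 (66.9) and rank 17 (183). Its sgRNA3 partner scored 50.3 at rank 373 of 382, next to the floor of that list. The site at chr3:161089556-161090474 ranked 9 (132) and 11 (246) and was shared with sgRNA6 alone, at rank 1340 of that list. The remaining 7 shared sites ranked from 23 to 80 in replicate 1 and from 124 to 730 in replicate 2.

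Recurrence between the replicates varied with where a peak stood in its list. In replicate 1, 9 of the 10 highest peaks were also in replicate 2 (90%, interval 55.5 to 99.7), as were 10 of the next 14. Of the 24 lowest, with scores of 50.1 to 52.0, 2 were (8.33%, interval 1.03 to 27). The exception among the 10 highest was the peak at chr14:20811329-20812012. In replicate 2, 7 of the 10 highest peaks were in replicate 1 (70%, interval 34.8 to 93.3) and 6 of ranks 11 to 25 (40%, interval 16.3 to 67.7). Below the 200 highest, 8 of 1078 peaks had a counterpart.

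Overlap with other guides was lowest among the highest peaks of replicate 2. It was found for 4 of the 10 highest peaks (40%, interval 12.2 to 73.8) and 10 of the 15 at ranks 11 to 25 (66.7%, interval 38.4 to 88.2), and for 83.1 to 92.5% of peaks in each band below. In replicate 1 the share with another guide lay between 16.7 and 33.3% in every band of the list, and the intervals of the bands overlapped.

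**Figure D2:**
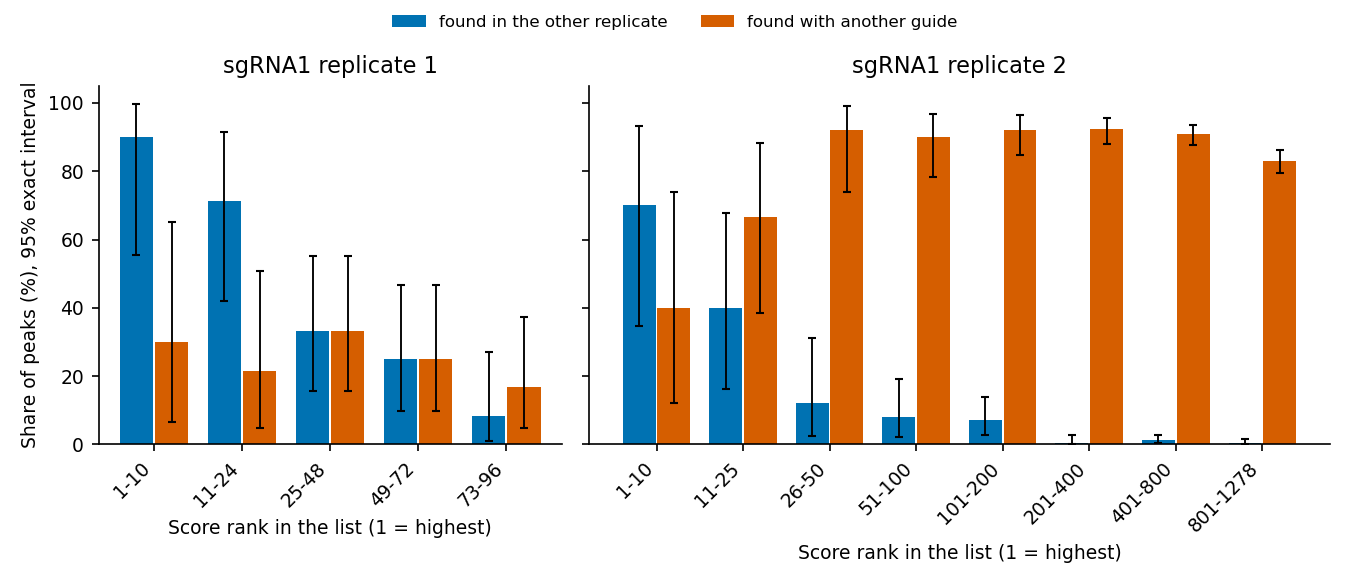
Share of sgRNA1 peaks (percent, with exact 95% intervals) found in the other sgRNA1 replicate (blue) and found with another guide (orange), by band of score rank within replicate 1 (left) and replicate 2 (right). In replicate 2 the blue bars stand at 70% for ranks 1 to 10 and at 0.418% for ranks 801 to 1278, while the orange bars stand at 83.1 to 92.5% from rank 26 on.

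The difference between the 35 sites and the replicate 2 only peaks was present among high peaks taken by themselves. Of the replicate 2 peaks with a score of 100 or more, 21 were sites of both replicates and 94 were in replicate 2 only. Another guide was found at 4 of the 21 (19%, interval 5.45 to 41.9) and at 90 of the 94 (95.7%, interval 89.5 to 98.8). The score bound was chosen after the values were seen. With the long lists of sgRNA4, sgRNA5 and sgRNA6 left out, the shares were 8.57% of the 35 sites (3 sites, interval 1.8 to 23.1) and 19.5% of the replicate 2 only peaks (242 peaks, interval 17.3 to 21.8). The order was the same, and the intervals then overlapped.

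The 61 peaks in replicate 1 only were mostly near the floor. Their scores ran from 50.1 to 457 with a median of 54.0, and 51 of 61 (83.6%) scored below 60, against 13 of the 35 replicate 1 peaks at sites of both replicates (37.1%). Replicate 2 peaks seldom lay near them. The nearest replicate 2 peak was a median of 858 kb away, and 1 of the 61 had one within 10 kb. The distance for randomly placed peaks was not computed, so these values are not read as a trait of the class. Another guide was found at 13 of them (21.3%, interval 11.9 to 33.7).

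One replicate 1 only peak was far above the others. At chr14:20811329-20812012 replicate 1 gave a score of 457, rank 3 of 96, and replicate 2 listed no peak there. The same region ranked 2 of 41 in sgRNA3 replicate 1, with a score of 745, and it held peaks of sgRNA5 (92.8, rank 1758 of 8346) and sgRNA6 (307, rank 2408 of 33611). The replicate 2 lists of sgRNA1 and sgRNA3 had no peak there.

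All other replicate 1 only peaks scored 72.4 or less. The next of those shared with another guide lay at chr12:20704113-20704755 (72.4, with sgRNA4), chr13:84440362-84440826 (59.5, with sgRNA4), chr22:31503586-31504124 (57.9, with sgRNA4 and sgRNA5) and chr13:85609345-85609954 (57.1, with sgRNA5). The highest with sgRNA1 alone lay at chr13:64434121-64435332 (70.9), chr10:48530875-48531176 (65.4), chr14:54603533-54604110 (63.2), chr7:64790591-64791037 (62.9) and chr13:87890831-87891274 (62.0). The chr13:64434121-64435332 peak was also the widest of replicate 1.

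The 1243 peaks in replicate 2 only were mostly shared. Another guide was found at 1109 of them (89.2%, interval 87.4 to 90.9). sgRNA6 was found at 962 (77.4%), sgRNA4 at 786 (63.2%) and sgRNA5 at 771 (62%), whereas the shorter lists of sgRNA2 and sgRNA3 were met at 172 (13.8%) and 95 (7.64%). The commonest single combination was sgRNA4 with sgRNA5 and sgRNA6, at 349 peaks. All but 2 of the 1109 shared peaks overlapped at least 1 of those long lists, which counted 1107.

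**Figure D3:**
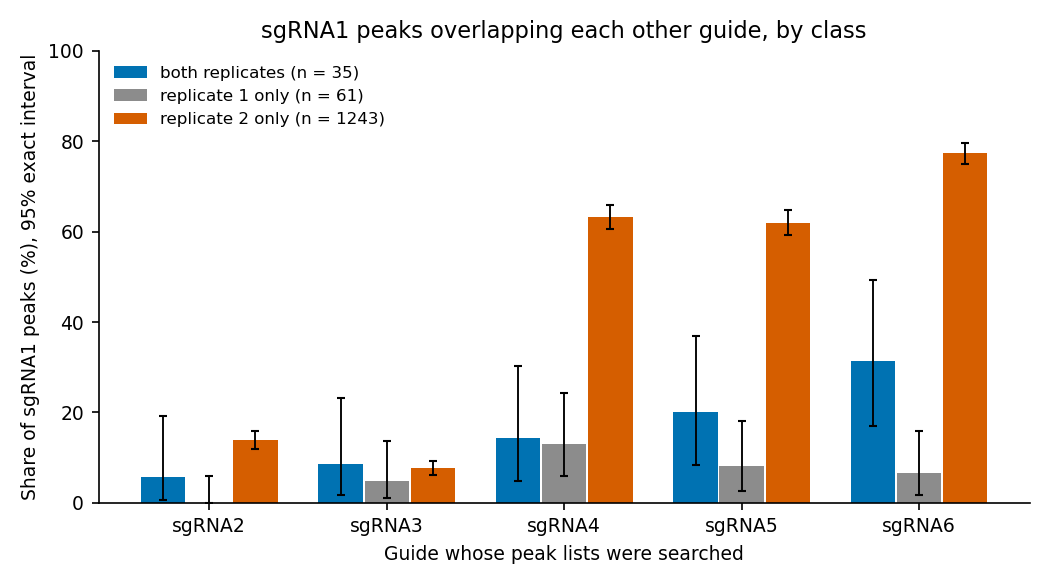
Share of sgRNA1 peaks (percent, with exact 95% intervals) that overlapped the lists of each other guide, for the 35 sites of both replicates (blue), the 61 peaks in replicate 1 only (grey) and the 1243 in replicate 2 only (orange). Orange bars for sgRNA4, sgRNA5 and sgRNA6 reach 63.2, 62 and 77.4%, and the blue and grey bars for the same lists stay at or below 31.4%.

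For sgRNA4, sgRNA5 and sgRNA6 the intervals of the 35 sites and of the replicate 2 only peaks did not overlap. At the sites of both replicates the shares were 14.3% (interval 4.81 to 30.3), 20% (8.44 to 36.9) and 31.4% (16.9 to 49.3). For sgRNA2 and sgRNA3 they did overlap, with 5.71% (0.7 to 19.2) and 8.57% (1.8 to 23.1) at the sites of both replicates. Replicate 1 only peaks met sgRNA2 in 0 of 61 cases (interval 0 to 5.87), where 3 counts would give a share of 4.92%.

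Replicate 2 only peaks found with more guides had higher scores and were wider. The median score was 56.4 over the 134 peaks with no other guide, 59.1 over 199 with 1, 62.6 over 335 with 2, 65.3 over 403 with 3, 73.4 over 152 with 4 and 93.5 over 20 with all 5. The median width was 612.5 bp with no other guide and 863 bp with all 5. Since 1 shared bp was enough, a wider peak had more room to meet other lists, and the counts were not adjusted for width. Most partners stood in the upper 50% of the long lists by score, with 83.2% of the sgRNA6 partners, 78.6% of the sgRNA5 partners and 73.8% of the sgRNA4 partners there.

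The highest shared peak in replicate 2 only was the widest of all sgRNA1 peaks. It covered 6010 bp at chr15:102299439-102305448, with a score of 368 (rank 5), and overlapped 3 separate sgRNA4 peaks, the highest at rank 5812 of 13660, and 1 sgRNA6 peak at rank 9482 of 33611. A group of 5 replicate 2 peaks, this one included, filled 12.7 kb there (chr15:102292775-102305448), 2 of them with sgRNA1 alone. The group was chosen after its values were seen. The next shared peaks were chr9:66493476-66494740 (290, all 5 other guides), chr9:115479857-115480569 (269, with sgRNA4, sgRNA5 and sgRNA6), chr3:135914953-135916292 (226, all 5) and chr1:243418285-243419769 (210, all but sgRNA3). The chromosome 9 peak at 66493476 also stood high with sgRNA5 (rank 12 of 8346), sgRNA2 replicate 2 (rank 7 of 570) and sgRNA3 replicate 2 (rank 11 of 382).

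Few replicate 2 only peaks were both high and found with sgRNA1 alone. The peak at chr17:9893189-9893853 scored 243 and ranked 12 of 1278. It was followed at a distance by chr6:40681013-40681792 (113, rank 77), chr22:21647750-21648429 (102, rank 107), chr17:79053016-79053684 (102, rank 108) and chrX:69352890-69353624 (93.2, rank 155). Of all 134 replicate 2 only peaks with sgRNA1 alone, 86 (64.2%) scored below 60, against 43.3% of all replicate 2 only peaks.

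Width separated the classes less than overlap did. In replicate 2 the median was 639 bp (349 to 1655) at the 35 sites and 721 bp (271 to 6010) in replicate 2 only, and in replicate 1 it was 517 bp (253 to 750) at the sites and 451 bp (257 to 1212) elsewhere. Within the replicate 2 only class, peaks shared with another guide had a median of 738 bp and the others 612.5 bp. All 9 peaks of 2000 bp or more were in replicate 2 only and overlapped another guide. Over all replicate 2 peaks these shares were 97.3 and 87.6%, so this is not read as a trait of wide peaks. The overlap rule of 1 bp gives such wide peaks more room to meet another list.

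**Figure D4:**
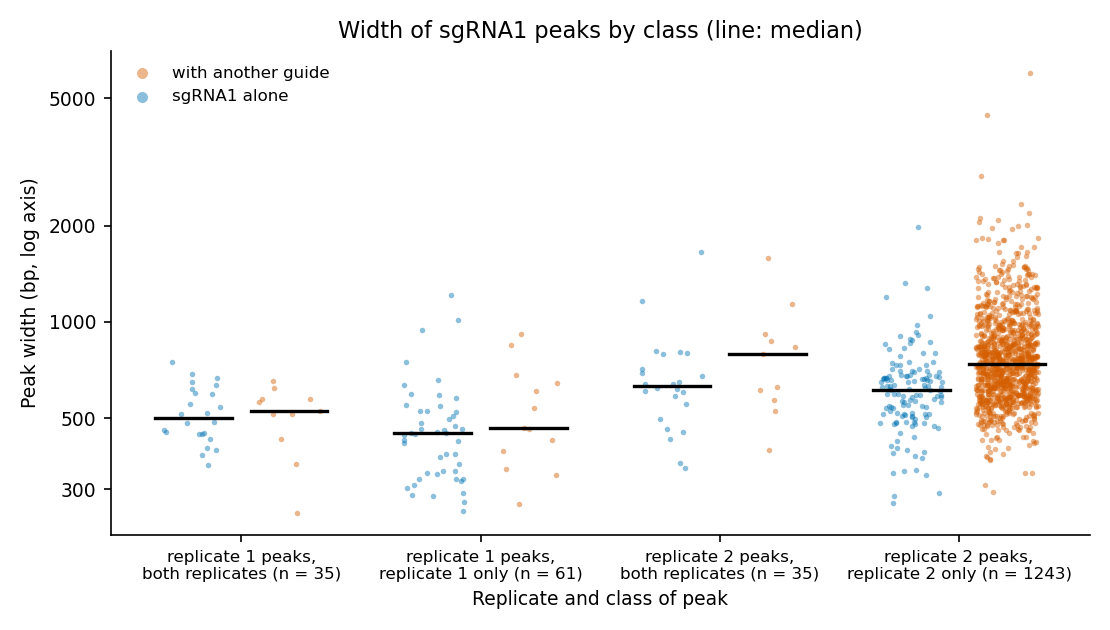
Width of every sgRNA1 peak (base pairs, log axis) by replicate and class, with peaks found with sgRNA1 alone in blue and those found with another guide in orange; black lines are medians. The replicate 2 only class with another guide holds the widest peaks, up to 6010 bp, and its median of 738 bp lies above the 612.5 bp of its counterpart with sgRNA1 alone.

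The widest peaks after the chromosome 15 one lay at chr1:161418640-161423066 (4427 bp) and chr1:161411307-161414173 (2867 bp), which are neighbours on chromosome 1, at chr9:82184711-82187046 (2336 bp) and at chr17:19280615-19282811 (2197 bp). None of them was the site of a replicate 1 peak, which held for 97.3% of all replicate 2 peaks. In replicate 1 the widest after that on chromosome 13 lay at chr4:191032109-191033120 (1012 bp), chr14:19971893-19972839 (947 bp), chr18:107906-108821 (916 bp) and chr6:150518001-150518848 (848 bp), all in replicate 1 only. Of all replicate 1 peaks, 63.5% were in replicate 1 only.

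The 35 sites were scattered over 19 chromosomes, with no more than 4 on any one. Chromosomes 1 and 17 held 4 each, and chromosomes 11, 13, 21 and X held none. Replicate 2 had 223 of its 1278 peaks on chromosome 1 (17.4%, interval 15.4 to 19.6), of which 4 were sites of both replicates. This share was not particular to sgRNA1, with 17.4% in sgRNA2 replicate 2 and 20.4% in sgRNA3 replicate 2. Of those 223 peaks, 194 (87%) overlapped another guide, close to the 87.6% of the whole list. They were densest between 150 and 160 Mb, with 25 peaks.

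Replicate 1 had most peaks on chromosome 13. It held 12 of the 96 (12.5%, interval 6.63 to 20.8), all between 64434121 and 91280891 and 8 of them between 80 and 90 Mb. None of the 12 was found in replicate 2, against 36.5% of all replicate 1 peaks. Another guide was found at 2 (16.7%), against 25% of all replicate 1 peaks. Their scores ran from 50.1 to 70.9. Apart from the peak at chr13:64434121-64435332, they lay in the bands from rank 25 down, where 8.33 to 33.3% of replicate 1 peaks recurred. In replicate 2, chromosome 13 held 34 peaks (2.66%, interval 1.85 to 3.7), 14 of them in the same span. The ends of the span are those of the 12 peaks themselves, so the share of sgRNA1 replicate 1 in it is high by construction. The shares of other lists there are given as descriptions only. Among the other lists the share of peaks in that span was 6.9% in sgRNA2 replicate 1 (4 of 58) and 4.88% in sgRNA3 replicate 1 (2 of 41), and 0.402 to 1.83% in the replicate 2 lists of these guides and the lists of sgRNA4, sgRNA5 and sgRNA6. The intervals of the 3 replicate 1 lists overlapped.

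**Figure D5:**
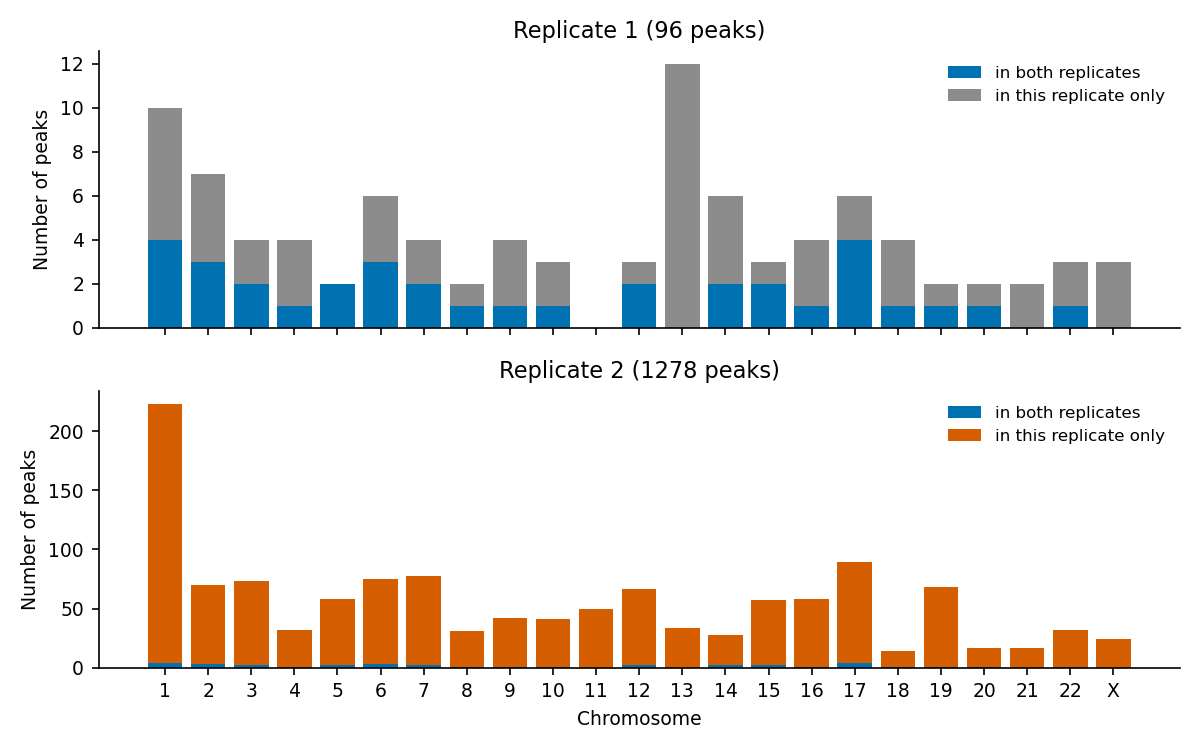
Number of sgRNA1 peaks on each chromosome in replicate 1 (top, 96 peaks) and replicate 2 (bottom, 1278 peaks), with the 35 sites of both replicates in blue and peaks of that replicate only in grey or orange. The tallest bar of replicate 1 is chromosome 13, with 12 peaks and none in both replicates, and that of replicate 2 is chromosome 1, with 223.

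At the start of chromosomes, within the first 5 Mb, lay 5 of the 35 sites (14.3%, interval 4.81 to 30.3), 2 of 61 replicate 1 only peaks (3.28%, interval 0.4 to 11.3) and 54 of 1243 replicate 2 only peaks (4.34%, interval 3.28 to 5.63). These intervals overlapped. All 5 sites were found with sgRNA1 alone, against 68.6% of the 35 sites. Only the starts of chromosomes were counted here, not their far ends.

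Few of the 35 sites had other sgRNA1 peaks nearby. Over all replicate 2 peaks the median distance to the nearest other was 309 kb, and 5.4% had one within 10 kb. Having few neighbours is therefore not read as a trait of the sites. When peaks up to 100 kb apart were joined, 4 groups of 3 or more peaks held a site of both replicates. Beside the chromosome 9 site lay a replicate 2 peak at chr9:110046060-110046553 (59.4), shared with sgRNA4, sgRNA5 and sgRNA6. Beside the chr14:93611340-93611858 site lay a replicate 2 peak at chr14:93673080-93674029 (101), shared with the same guides. In both groups the site was found with sgRNA1 alone and its neighbour was not.

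The other groups were shared throughout. Around the site at chr15:75742649-75743523 lay 3 further replicate 2 peaks in a group spanning 86.8 kb, and near that at chr17:71228011-71229593 lay 1 further replicate 2 peak in a group spanning 80.4 kb. Every peak of these groups overlapped sgRNA4, sgRNA5 and sgRNA6.

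The replicated guides were set beside each other in the same way. The share of sites of both replicates that overlapped another guide was 31.4% for sgRNA1 (11 of 35), 35.3% for sgRNA3 (6 of 17, interval 14.2 to 61.7) and 93.8% for sgRNA2 (15 of 16, interval 69.8 to 99.8). For replicate 2 only peaks it was 89.2, 83.8 and 94% in the same order. Each guide gives 1 such set of sites, so the difference between guides was not tested.

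Replicate 1 peaks of sgRNA1 met their own replicate 2 list more often than those of sgRNA2 or sgRNA3. With the replicate 2 lists each reduced to their 382 highest peaks, so that length was equal, 28 of 96 were found in the sgRNA1 list (29.2%, interval 20.3 to 39.3), 2 in that of sgRNA2 and 3 in that of sgRNA3. Over the 3 replicated guides and the full lists, the mean share was 35.2% with the own list and 13.7% over the other assignments of lists to guides (exact permutation test over libraries, one-sided, p = 0.167, the smallest p that 6 assignments allow). The design therefore cannot reach 0.05. Some of the other assignments leave a guide with its own list, so 13.7% is not the share met in lists of other guides alone. The guides also differed. Of the sgRNA2 replicate 1 peaks, 27.6% met their own replicate 2 list, 22.4% that of sgRNA1 and 17.2% that of sgRNA3. For sgRNA3 it was 41.5% with the own list and 2.44% with each of the others.

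Whole lists were also compared between sgRNA1 and the other replicated guides, in a design that cannot reach 0.05. The sgRNA1 list was the longest in each replicate, with 96 peaks against 58 for sgRNA2 and 41 for sgRNA3 in replicate 1, and 1278 against 570 and 382 in replicate 2. Of the sgRNA1 peaks, 22.9% of replicate 1 and 87.5% of replicate 2 overlapped a peak in the 3 long lists. The corresponding shares were 74.1 and 93.9% with sgRNA2, and 26.8 and 81.4% with sgRNA3. The mean was 55.2 ± 45.7% (SD, n = 2) for sgRNA1 and 69.1 ± 29.3% (SD, n = 4) for the others, a difference below the SD of either group (two-sided exact permutation test, adjusted p = 0.8). Peak number on the log10 scale, median width and the share on chromosome 1 gave the same adjusted p of 0.8 by the exact permutation test over 4 measures. The smallest unadjusted p that 15 arrangements allow is 0.0667, and the SDs hold the gap between replicates 1 and 2, so these values do not show that the guides were alike.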

How the data were processed

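Peak lists of 9 libraries were read as deposited, with chromosome, start, end and the authors' score per peak. Per the submitters' processing notes the tools were Bowtie, Bowtie2 and MACS and the build hg19; the sources used here give no versions, settings or filters. The deposited score is the authors' value for 1 peak of 1 library, and replicates were not pooled. The lists hold no read counts, so depth is unknown. Of the 12 samples described, 3 (dCas9 without a guide, and the amplicons with wild-type Cas9) were not analysed here.

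Starts were moved by 1 to count from 1. Peaks overlapped when they shared at least 1 bp, and another guide was counted when any of its libraries had an overlapping peak. Ranks run from the highest score, and ties share a rank. Shares carry Clopper-Pearson 95% intervals, and beside a share of 0 stands the share that 3 counts would give. Tests took libraries as units and were exact permutation tests, adjusted by Benjamini-Hochberg over 4 measures. As nothing says that replicates were separate cultures, their p-values may reflect technical spread alone. The overlap code was tested on simulated data. Python 3.11.15, numpy 2.4.6, scipy 1.17.1 and matplotlib 3.10.9 were used.

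Members, lists and tests were chosen with earlier results of these data known. Named regions were the sites of both replicates with sgRNA1 alone in the top 50 of either list, the shared ones in the top 10 of either list or found with 4 or more other guides, the 5 highest peaks of each remaining class, the 5 widest of each replicate, and groups of 3 or more peaks within 100 kb that hold a site of both replicates. Alternatives were overlap over at least 50% of each peak, peak centres up to 500 bp apart, only the better-scoring 50% of a list, merging of peaks up to 1000 bp apart, replicate 2 lists of equal length, leaving out the sgRNA4, sgRNA5 and sgRNA6 lists, leaving out a replicate, and the replicate number as a block. A search for short words before an NGG motif and the genes at named regions, both conditional on an hg19 reference, were not analysed here.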

Additional observations from a re-analysis of the deposited data

How the results depend on the processing

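Of 40 alternative values for 9 results, 32 kept their direction and side of the threshold, or stayed within the set limit. Of the rest, 0 reversed and 8 moved out of their counting interval. For the list measures and the overlap with the own replicate 2 list, the permutation tests had too few arrangements to cross the threshold. Their side of it was therefore fixed in advance, and only the direction could change. The difference in overlap with the sgRNA4 to sgRNA6 lists counted as kept although it went from -13.9 to -0.156 points without replicate 1. The number of sites in both replicates was 35 in the main setting, with centres within 500 bp and with peaks within 1000 bp merged, 30 with 50% of both peaks overlapping and 25 with the higher-scoring 50% of each list. Without the sgRNA4, sgRNA5 and sgRNA6 lists, far fewer peaks were searched and the share found with another guide fell to 8.57% at sites of both replicates, 19.5% in replicate 2 only and 4.92% in replicate 1 only. In that setting the order of these classes was the same, and the interval of the sites (1.8 to 23.1, from 3 of 35) overlapped that of the replicate 2 only peaks (17.3 to 21.8). The replicate 2 only share was also 81.6% with 50% of both peaks overlapping, 87.4% with centres within 500 bp, 81.7% with the higher-scoring 50% of the other lists and, among settings chosen after the data were seen, 95.7% at scores of 100 or more and 85.1% at widths of 800 bp or less. The sites of both replicates gave 19 to 28.6% in these settings. Depth is unknown, and the list lengths limit every share.

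The replicate number as a block left the differences between sgRNA1 and the other replicated guides as they were: 0.366 in log10 peak number (p = 0.111, the smallest that 9 arrangements allow, exact permutation test), -69.2 bp in median width, -13.9 percentage points in overlap with the sgRNA4 to sgRNA6 lists and -2.44 points on chromosome 1. The labels do not say that a number marks a shared batch, and each number occurs once per guide. Without replicate 1 the difference in overlap was -0.156 points and without replicate 2 it was -27.6 points; log10 peak number ranged from 0.294 to 0.438, width from -107 to -31.5 bp and chromosome 1 from -3.44 to -1.44 points.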
